A study of Homo sapiens with 12 samples.

Results

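SSP-25 is an established line of human intrahepatic cholangiocarcinoma (ICC), a cancer of the bile ducts within the liver. Its response to LKB1 knockdown was measured by RNA sequencing 48 h after transfection of siRNA against LKB1 or of scrambled siRNA as the control, at 45 pmol per well. Each siRNA has 2 libraries. No other treatment was given, and both groups of cells were grown in the same serum-containing medium and transfected with the same lipid reagent. The series also holds the ICC lines HuH-28 and RBE, treated in the same way, for 12 libraries in all. The genes described here are the 14509 whose signal reached 1 in 2 or more of the 4 SSP-25 libraries, of 18792 genes listed. Of these, 276 reached a signal of 1 with 1 of the siRNAs only.

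LKB1, the product of STK11, is a serine/threonine kinase and tumor suppressor. In a complex with the pseudokinase STRAD and the scaffold MO25 it phosphorylates and switches on AMPK, the cell's sensor of low energy, and a family of AMPK-related kinases that act on polarity, adhesion and CREB-dependent transcription. AMPK restrains mTORC1 and the synthesis of cholesterol and fatty acids. In bile duct cancers, as in other epithelial tumors, loss of LKB1 is studied for its link to growth, invasion and changes of cell adhesion.

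The deposited values are normalized reads per kilobase, called the signal below. The sum of a library was 10940000 to 11520000 in SSP-25 and 9920000 to 11750000 over the series. How many reads lie behind it is unknown. The LKB1 siRNA libraries listed 14499 and 14506 genes at a signal of 1 or more and the control libraries 14200 and 14169. Log2(signal + 0.5) was fitted with limma over 16146 genes, using the spread of all 12 libraries. Calls needed an adjusted p below 0.05 together with a log2 fold change beyond 1 in either direction, and a gene that met the p alone is said to have passed. In the text "rose" and "fell" stand for genes that passed. Fold changes on this scale understate changes of genes with low signal. With 2 libraries against 2 an exact permutation test cannot give a two-sided p under 0.33, so the tests rest on the pooled spread. No source says that the 2 libraries of a group came from separate cultures, and the p-values then cover the spread between libraries, which may be technical. All 8 general epithelial markers and 9 of 12 biliary markers had a signal of at least 1 in each SSP-25 library. So did 8 of 9 fibroblast, 5 of 8 endothelial and 4 of 9 leukocyte markers, so this low cutoff does not single out epithelium. The biliary markers CFTR and ONECUT1 were below 1 in all 4. Hepatocyte markers were near 0, with 1 of 15 at 1 or more in each library and a sum of 11.2 to 22.2.

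STK11 lies on the forward strand of chromosome 19 at chr19:1177558-1228435 (GENCODE v29, GRCh38). Its signal was 464 and 459 in the control libraries and 61.8 and 72.8 in the LKB1 siRNA libraries. The target was thus lower in both knockdown libraries, with no overlap, and the means differed 6.86-fold. On the log2 scale it fell by 2.77 (standard error 0.11, limma adjusted p = 1.7e-07). Of the remaining 4 members of the LKB1 complex list, STRADA, which encodes the pseudokinase partner, fell from 337 and 336 to 260 and 274, and CAB39L, a second MO25 gene, from 99.3 and 99.8 to 78.3 and 66.6. CAB39 and STRADB did not pass.

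Across all genes fitted, 987 were called higher (6.11%) and 368 lower (2.28%) with LKB1 siRNA. Without the fold threshold 3403 passed higher (21.1%) and 3410 lower (21.1%), so as many genes fell as rose, while rises made up 72.8% of the calls and 57.9% after quantile normalization of the libraries. Among the members 923 were called higher and 351 lower. Of the 14509 members 22.9% passed higher and 23.3% passed lower, the shares to set beside the list counts below. The called rises lay at lower signals than the called falls, with a median of the mean signal of 20.8 against 62.3, and 193 over all members. Of the called rises 248 had a mean signal under 5, and 140 had reached a signal of 1 with LKB1 siRNA only or control siRNA only, so that they had to differ to become members. The same holds for 39 of the called falls. The median log2 fold change over members was 0.00. The siRNA groups did not overlap in any called member, a property that 37.8% of all genes had in the upward and 36.1% in the downward direction. Genes named below as the largest changes were chosen without overlap, and those of lists mostly by smallest p. Their lack of overlap thus follows largely from the choice.

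**Figure D1:**
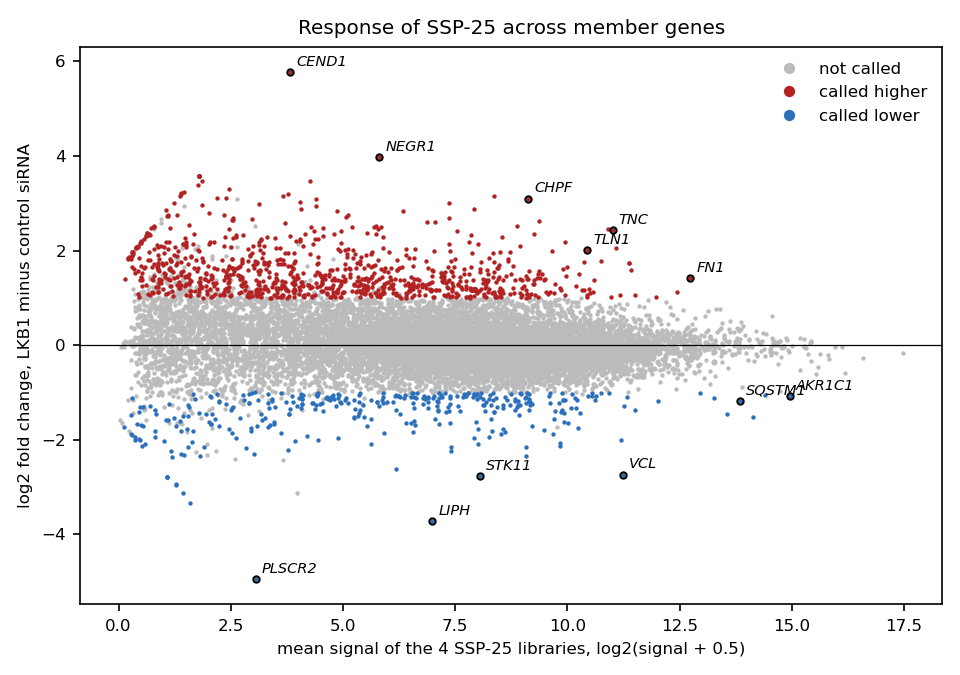
Log2 fold change (LKB1 minus control siRNA) against the mean signal of the 4 SSP-25 libraries, as log2(signal + 0.5), for the 14509 members, with genes called higher in red, called lower in blue and not called in gray. Called rises are denser at low signals, with a median mean signal of 20.8 against 62.3 for called falls.

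The largest rises among well-measured genes joined neuronal adhesion and transport genes, matrix and growth factor genes and hair keratins. NEGR1, a cell adhesion molecule of neurons, had a signal of 5.24 and 7.28 with control siRNA and of 105 in both libraries with LKB1 siRNA, a rise of 3.98 on the log2 scale (standard error 0.19, limma adjusted p = 2.9e-07). The metalloreductase STEAP3, which reduces iron in endosomes, went from 66.4 and 65.3 to 595 and 593. CHPF, an enzyme that lengthens chondroitin sulfate chains, went from 115 and 116 to 1052 and 941. In each of these the pairs of libraries lay far apart, with means that differed 16.8-fold, 9.02-fold and 8.63-fold. KIF5C, the heavy chain of a neuronal kinesin, rose from 3.34 and 4.6 to 37.1 and 37.0. The kinase HIPK3 rose from 57.4 and 57.6 to 428 and 422, and ELAVL2, a neuronal RNA-binding protein, from 7.63 and 9.34 to 56.6 and 63.0. The secreted factors GDF6, GDF11 and IL11 rose 8.39-fold, 6.54-fold and 7.17-fold, the prostaglandin transporter SLCO2A1 7.53-fold and the proteoglycan VCAN 6.13-fold. The integrin subunit ITGB8 and the keratins KRT81, KRT83 and KRT85 complete the 15 largest.

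Besides STK11 itself, the 15 largest falls held genes of lipid handling, adhesion and innate immunity. LIPH, a phospholipase that makes lysophosphatidic acid, went from 240 and 231 to 14.5 and 20.6, a fall by 3.73 on the log2 scale (SE 0.21, limma adjusted p = 8.3e-07). The vinculin gene VCL went from 4284 and 4128 to 630 and 627. The kindlin FERMT2, an activator of integrins, went from 1515 and 1450 to 362 and 344. The means of these 3 were lower by 13.4-fold, 6.69-fold and 4.20-fold. HPD, an enzyme of tyrosine breakdown, fell 6.25-fold, and GBE1, the glycogen branching enzyme, went from 1496 and 1477 to 322 and 358. The phospholipase PLA2G16 fell 5.06-fold, the Polycomb protein SCML2 4.74-fold, the xylosyltransferase GXYLT1 4.47-fold, and the claudin CLDN12 4.46-fold. CCDC99, a spindle protein, fell from 3755 and 3717 to 932 and 917, and C4orf34 fell 4.27-fold. BIRC3, an inhibitor of apoptosis induced by NF-κB, went from 346 and 421 to 95.1 and 98.3, and GBP5, an interferon-induced GTPase, from 30.2 and 38.1 to 11.4 and 5.69. HRASLS2, a neighbor and relative of PLA2G16 on chromosome 11, went from 88.7 and 70.3 to 24.4 and 13.3 (limma adjusted p = 0.041), a call that was lost without the mean-variance trend, with a pseudocount of 0.1 and when 1 library was left out. At the extremes, CEND1, which promotes exit of neuronal precursors from the cell cycle, was at or near 0 in both control libraries and at 26.6 and 27.8 with LKB1 siRNA, while the scramblase-family gene PLSCR2 had 13 and 18.3 with control siRNA and was at or near 0 with LKB1 siRNA. Fitted values for these genes depend on the pseudocount, and no ratio of their means is given.

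**Figure D2:**
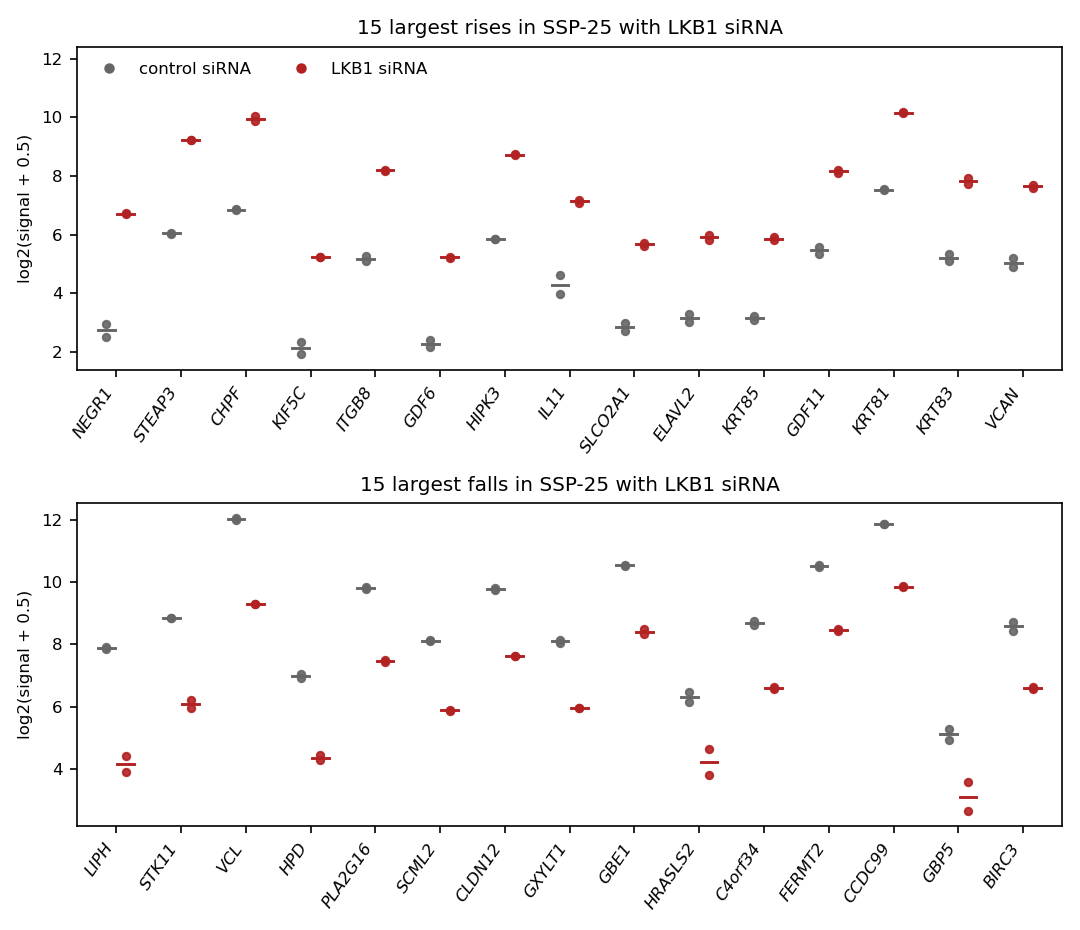
Signal of each library, as log2(signal + 0.5), for the 15 largest rises and 15 largest falls among called genes whose signal averaged 20 or more, with control siRNA in gray, LKB1 siRNA in red and bars at the mean of 2 libraries. Genes were taken only where the libraries of the siRNAs do not overlap, so that this separation is part of the choice. The pairs of a group lie close together except for low signals such as GBP5 and HRASLS2.

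Some of these genes share short words in their 3′ untranslated regions (UTRs). Of the words searched, GCAGTAC is the first. The second, CAGTACA, overlaps it by all but its last base. The third is GAAGGAA. All were known from earlier results on these data, so what follows describes them and is no test. Of the 15 largest rises 7 hold GCAGTAC or CAGTACA in the longest annotated 3′ UTR, against 2 of the 13 largest falls that have such a UTR, CLDN12 and PLA2G16. GAAGGAA is in 6 of these 13 falls and in 5 of the 15 rises, among them NEGR1 and GDF11. Over all named genes with a UTR, 35 of the 112 that rose hold GCAGTAC or CAGTACA and 29 hold GAAGGAA, against 8 and 28 of the 75 that fell, and 56 and 45 hold none. One site is shown for each rise with GCAGTAC and each fall with GAAGGAA, so that they can be compared base by base, and some of these genes hold further sites of the same or another word. GDF6, which holds CAGTACA without the first word, is not shown. Each line gives a stretch of the 3′ UTR, read 5′ to 3′ on the strand of the gene, with the word or the overlapping pair of words in capitals.
NEGR1: accttgtgaaGCAGTACAcattgtccttt
STEAP3: ctcaaatgtatGCAGTACtattcagaatg
CHPF: acgtatttatGCAGTACAgtctgcctgac
KIF5C: ccagccatctGCAGTACAccagtttcagg
HIPK3: gtaaaaaccaGCAGTACAtttttagtcac
ELAVL2: cttttcgtaaaGCAGTACcttgccaaaga
LIPH: atgaggcaaggGAAGGAAaagcagagctt
VCL: tctactaaaaaGAAGGAAaatgatctgag
SCML2: aaaagcttaaaGAAGGAAaatacagttaa
CLDN12: ttcttatactgGAAGGAAttttagccttc
GXYLT1: aagataagtgtGAAGGAAtcgtcttggat
FERMT2: tgtttgaccttGAAGGAAaatgctattag
In GRCh38 these lie at chr1:71407231-71407259 (NEGR1, reverse strand), chr2:119263472-119263500 (STEAP3), chr2:219539097-219539125 (CHPF, reverse), chr2:149023175-149023203 (KIF5C), chr11:33355724-33355752 (HIPK3), chr9:23691938-23691966 (ELAVL2, reverse), chr3:185507941-185507969 (LIPH, reverse), chr10:74118202-74118230 (VCL), chrX:18241251-18241279 (SCML2, reverse), chr7:90413611-90413639 (CLDN12), chr12:42087713-42087741 (GXYLT1, reverse) and chr14:52857847-52857875 (FERMT2, reverse). Outside the words none of the 6 stretches of each kind repeats another in full, but some share bases next to the word. GAAGGAA is followed by AA in LIPH, VCL, SCML2 and FERMT2, and GCAGTAC is preceded by TAT in STEAP3 and CHPF. Whether these shared bases matter was not tested. CHPF holds its site in a UTR of 436 bases, whereas that of NEGR1 is 11506 bases long.

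Over 10668 genes whose signal averaged 20 or more and that have a 3′ UTR, genes with these words stood apart in SSP-25. Genes without GCAGTAC had a median log2 fold change of -0.04, genes with 1 site 0.27 (550 genes), and genes with 2 or more 0.51 (39 genes), and 3.52%, 15.6% and 25.6% of them were called higher. For CAGTACA the shares called higher were 3.57%, 9.72% and 15.8% at 0, 1 and 2 or more sites. GAAGGAA went with falls, with 1.46%, 3.18% and 5.99% called lower. Within UTRs of 500 to 1499 bases 21.5% of 79 genes with 1 GCAGTAC were called higher against 3.02% of 3314 without, and 4.42% of 385 genes with 1 GAAGGAA were called lower against 1.61% of 2977 without. In UTRs under 500 bases 1.39% of 72 genes with 1 GAAGGAA were called lower and 1.54% of 2207 without. Genes called higher held GCAGTAC or CAGTACA in 31.9% of cases, against 12.5% of all genes, and genes called lower held GAAGGAA in 42.5%, against 21.7%. Among the 7523 genes with none of the 3 words 254 were called higher (3.38%) and 113 lower (1.5%). What part the words have in the changes was not tested. Below, a gene is said to hold a word where its longest 3′ UTR does.

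**Figure D3:**
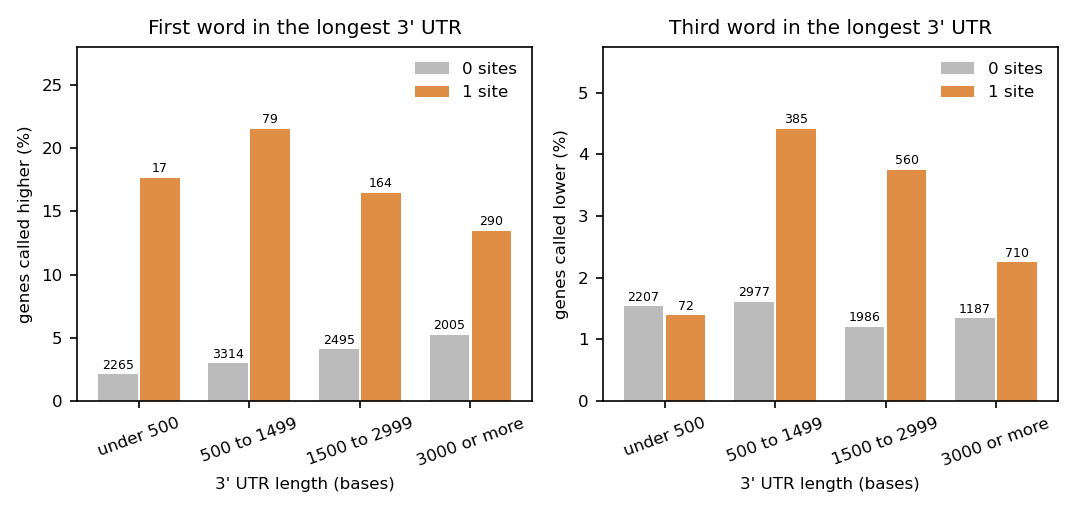
Share of genes called higher by the first word (left, GCAGTAC) and called lower by the third word (right, GAAGGAA), in percent, for genes with 0 sites (gray) and 1 site (orange) in classes of 3′ UTR length in bases, with the number of genes above each bar. For the first word the share with 1 site is above that with 0 sites in all 4 length classes, and for the third word in the 3 longer classes.

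Hair keratins rose. Type II keratin genes lie in a cluster on chromosome 12, where hair keratins, normally made in the hair shaft, sit between KRT7 and the genes for epidermal keratins. KRT81 had a signal of 186 and 183 with control siRNA and of 1159 and 1125 with LKB1 siRNA. KRT83 went from 33.7 and 40.2 to 244 and 211, KRT86 from 58.0 and 57.5 to 327 and 295, and KRT85 from 8.07 and 8.87 to 59.9 and 56.0. The log2 fold changes were 2.62, 2.61, 2.42 and 2.70, with limma adjusted p-values between 4.6e-08 and 2.1e-05. Looking along the cluster was chosen after these values were seen. The remaining hair keratins KRT82 and KRT84 rose from 3.16 and 3 to 32.1 and 25.8 and from 1.54 and 6.78 to 31.6 and 24.9. Of the 19 keratin genes of chromosome 12 that were members, 14 passed higher and 0 lower, and 10 were called. KRT75 and KRT4 had become members through the LKB1 siRNA libraries alone, and of the other 17 members 13 passed higher and 9 were called. The genes that passed between KRT80 and KRT6A, chr12:52168996-52493257, included the epidermal keratins KRT6A, KRT6B and KRT6C and the simple epithelial keratin KRT7, which went from 6048 and 5759 to 8651 and 8983. KRT6A had 4.64 and 4.79 with control siRNA and the wide pair 45.2 and 14.9 with LKB1 siRNA, and KRT75 stayed under 3. KRT5, next in order, had 44.0 and 0.873 with control siRNA and did not pass. KRT81, KRT83 and KRT86 are near-identical, as are KRT6A, KRT6B and KRT6C, and the annotated span of KRT86 holds KRT81 on the opposite strand, so reads may have been shared among them.

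Of the NRF2 program more genes fell than rose. NRF2 is the transcription factor that induces glutathione, thioredoxin and NADPH-producing enzymes under oxidative stress, and KEAP1 targets it for degradation. Of 29 members of the list 15 passed lower and 1 higher, beside 23.3% lower and 22.9% higher over all SSP-25 members. The median log2 fold change of the list was -0.28. SRXN1, the sulfiredoxin that repairs peroxiredoxins, had 13822 and 13154 with control siRNA and 6181 and 6215 with LKB1 siRNA. The aldo-keto reductase AKR1C1, one of the highest signals in these cells, had 42987 and 43227 against 20309 and 20679. Both were lower by about the same factor, 2.18-fold and 2.10-fold. OSGIN1 fell from 3521 and 3396 to 1742 and 1754, and the glutathione reductase GSR from 2506 and 2436 to 1499 and 1416. NFE2L2, the gene of NRF2 itself, and KEAP1 fell as well, with log2 fold changes of -0.59 and -0.58. AKR1C1, AKR1C2 and AKR1C3 are close paralogs whose reads may be shared.

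The promoters of some of these genes hold the core of the antioxidant response element, TGACNNNGC, searched on both strands from 250 bases before to 50 after the transcription start (RefSeq, GRCh38.p14). A promoter was at hand for 21 members of the NRF2 list, and 5 of these held the core, 23.8% against 13.6% of all 27195 promoters. One match is shown for each, with the motif in capitals, read on the strand where it matches, and TXNRD1 and ME1 hold a second. GCLM, TXNRD1, PGD and PIR fell, and ME1 did not pass (log2 fold change -0.13).
GCLM: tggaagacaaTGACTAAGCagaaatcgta
TXNRD1: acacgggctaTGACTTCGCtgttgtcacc
PGD: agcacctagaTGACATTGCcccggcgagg
PIR: agcctcaccgTGACTCAGCgcttcgcggc
ME1: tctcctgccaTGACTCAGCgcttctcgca
They lie at chr1:93909446-93909474, chr12:104215670-104215698, chr1:10398853-10398881, chrX:15493289-15493317 and chr6:83431170-83431198. Members without a match fell too, with 10 of 16 lower and 0 higher.

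Among proteasome, lysosomal and autophagy genes, too, falls outnumbered rises. Of 30 proteasome subunits 18 passed lower and 1, PSMB5, passed higher, with a median of -0.28 and a lowest value of -0.84. PSMD11, a lid subunit, went from 2647 and 2529 to 1485 and 1409, and PSMD2, a base subunit, from 7824 and 7879 to 4857 and 4567. PSMA4 of the core ring fell by 0.51 and the ATPase PSMC2 by 0.48 on the log2 scale. The falls were small and spread over core, base and lid. Of 43 genes of autophagy and the lysosome 20 passed lower and 5 higher, with a median of -0.21. SQSTM1, the p62 receptor that brings ubiquitinated cargo to autophagosomes, went from 20971 and 19749 to 8967 and 8950, a fall by 1.18 (standard error 0.06, limma adjusted p = 3.5e-07). SCARB2, a lysosomal membrane protein, fell from 1104 and 1100 to 340 and 297, and the receptor NBR1 from 830 and 852 to 547 and 535. LAMP2 went the other way, from 474 and 501 to 1029 and 1044. SCARB2 holds GAAGGAA, LAMP2 GCAGTAC, NBR1 both CAGTACA and GAAGGAA, and SQSTM1 none of the words. PSMA4, which fell, holds all 3.

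In the cell cycle lists falls outnumbered rises and were mostly small. Of 39 genes of mitosis and the spindle 19 passed lower and 5 higher (median -0.16), of 39 genes of DNA replication 17 and 3 (median -0.15), and of 24 G1 cyclins, kinases and RB family genes 10 and 4 (median -0.18). HMMR, a spindle protein and hyaluronan receptor, went from 1320 and 1379 to 535 and 509, and the mitotic kinesin KIF23 from 2423 and 2450 to 1411 and 1439. PRC1, which bundles the microtubules of the central spindle and holds GCAGTAC, rose from 909 and 849 to 2021 and 1961. Apart from CCDC99, HMMR and PRC1, no gene of the mitosis list was called. Among the replication genes POLA2, a subunit of the primase complex, fell from 1705 and 1609 to 989 and 916, GINS1 by 0.59 and the helicase subunit MCM6 by 0.46, while POLD3 rose by 0.80 and holds GCAGTAC. In G1, E2F4 went from 1351 and 1277 to 722 and 718, E2F1 fell by 0.46, TFDP2, a partner of E2F, by 0.70, and cyclin E1 (CCNE1) rose by 0.42. Cyclin D1 (CCND1) rose from 2267 and 2579 to 3405 and 3355.

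Targets of p53 went both ways, with 9 of 24 lower (37.5%) and 7 higher (29.2%), beside 23.3% and 22.9% of all SSP-25 members. TP53I3, an oxidoreductase induced by p53, went from 5998 and 5512 to 2518 and 2517. GADD45A, a growth arrest gene, went from 2226 and 2090 to 951 and 987. In both, picked by smallest p, the knockdown libraries lay far below either control. MDM2, the ligase that degrades p53, fell from 226 and 235 to 137 and 138, and the death receptor TNFRSF10B from 841 and 879 to 601 and 603.

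Among inflammatory genes downstream of NF-κB falls outnumbered rises. Of 27 chemokine, cytokine and NF-κB genes 12 passed lower and 2 higher (median -0.48). NFKB2, the precursor of the p52 subunit, had 1104 and 1108 with control siRNA and 566 in both LKB1 siRNA libraries, a fall by 0.97 (standard error 0.06, limma adjusted p = 1.1e-06). RELB, its partner in the noncanonical pathway, went from 334 and 340 to 180 and 152. The neutrophil chemokine CXCL1 went from 107 and 208 to 71.4 and 54.8, and CXCL3 from 56.8 and 104 to 43.0 and 37.1. The 2 control libraries of these chemokines lay far apart. Without the second control library the adjusted p was 0.063 for CXCL1 and 0.15 for CXCL3, and without the second LKB1 siRNA library it was 0.064 and 0.11 (limma). The rises were IL11, an interleukin of the IL-6 family, which rose from 24.0 and 15.2 to 146 and 136, and the monocyte chemokine CCL2, which rose from 54.9 and 43.0 to 124 and 141. Both rises were several times the spread between libraries.

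Among interferon-stimulated genes few rose. Of 40 members of the list, with a median of -0.29, 12 passed lower (30%) and 2 higher (5%). Over all SSP-25 members the shares were 23.3% and 22.9%, so the share of falls was not far above that of all members. IRF1, a transcription factor of the interferon response, went from 376 and 365 to 203 and 198, IFI35 from 551 and 561 to 314 and 307, and USP18, which turns down interferon signaling, from 135 and 139 to 54.6 and 54.0. IFIT3 went from 227 and 260 to 130 and 113. In these 4, picked by smallest p, the knockdown libraries lay well below both controls. The core of the interferon-stimulated response element, a pair of GAAA spaced by 2 bases, was found on either strand in 21 of the 30 list promoters available (70.0%) against 3.65% of all promoters, and 6 of these 21 genes and 3 of the 9 without it passed lower. Of the genes with a match, MX1 and IFIT3 fell and ISG15 did not pass, as the following lines show with the motif in capitals, read on the strand where it matches.
MX1: gagcagaaatGAAACCGAAActgaattgtc
IFIT3: gaggaaactgGAAAGTGAAActaatttaaa
ISG15: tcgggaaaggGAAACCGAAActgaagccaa
They lie at chr21:41420559-41420588, chr10:89327865-89327894 and chr1:1013380-1013409. MX1 had 14.3 and 18.4 with control siRNA and 4.39 and 5.20 with LKB1 siRNA, whereas ISG15 went from 830 and 806 to 1004 and 942 (limma adjusted p = 0.066).

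Receptors and signal transducers of the IL-6 family and of JAK-STAT signaling had 9 of 24 members higher and 5 lower. IL6ST, which encodes gp130, the shared receptor of IL-6 and IL-11, went from 304 and 350 to 1291 and 1292, and IL10RB from 173 and 164 to 552 and 534. IL6ST holds all 3 words and IL10RB none. The feedback inhibitors SOCS2 and CISH rose 3.38-fold and 3.02-fold at low signals.

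Among Wnt ligands and receptors there were rises and no falls. Of 10 Wnt ligands 5 passed higher and 0 lower (median 0.94), or 4 of the 9 that did not become members through 1 siRNA group alone. WNT5B, a noncanonical ligand, had 146 and 151 with control siRNA and 530 and 480 with LKB1 siRNA. WNT5A had 216 and 226 against 457 and 436, WNT7B 153 and 143 against 266 and 281, and WNT10B 17.6 and 18.7 against 41.0 and 37.8. None of these 4, picked by smallest p, holds any of the words, and the groups did not overlap. WNT4 was close to 0, with 0.821 and 0.516 against 1.89 and 2.12, and of the 4 single libraries the first control alone could be left out with WNT4 still passing. WNT2B did not pass (3.32 and 2.22 against 3.61 and 5.14, limma adjusted p = 0.21). Of 15 Frizzled receptors and coreceptors 10 passed higher and 0 lower (median 0.62). LRP6, the coreceptor of the β-catenin branch, went from 122 and 132 to 240 and 249, PTK7 from 37.1 and 34.6 to 57.7 and 64.2, RYK from 432 in both to 691 and 642, and FZD4 from 84.8 and 86.1 to 162 and 184. FZD2, FZD7 and FZD1 rose by 0.78, 0.68 and 0.57. Without the genes that hold a word 7 of 11 receptors passed higher.

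Rises outnumbered falls among Hedgehog genes and TGF-β family ligands. Of 16 Hedgehog genes 10 passed higher and 0 lower (median 0.56). HHIP, an antagonist that binds Hedgehog ligands, rose from 16.0 and 13.1 to 72.7 and 81.8, GLI2, a transcription factor of the pathway, from 33.1 and 36.5 to 79.1 and 92.1, GLI3 from 7.35 and 8.34 to 14.9 and 14.2, and DISP2, related to the protein that releases the ligands, from 59.6 and 62.6 to 121 and 114. Without genes that hold a word 4 of 10 rose. Of 20 TGF-β, BMP and activin ligands and their antagonists 12 passed higher and 2 lower (median 0.82), or 11 and 2 of the 19 that did not become members through 1 siRNA group alone (median 0.70). Among them were GDF11 from 40.4 and 47.2 to 295 and 278, TGFB2 from 290 and 281 to 597 and 625, BMP4 from 189 and 196 to 458 and 516, and the BMP antagonist NOG from 19.6 and 20.5 to 78.7 and 77.4. The antagonists FST and FSTL3 rose by 2.41 and 0.44, and GREM1 did not pass (0.23). GDF15 was 1 of the 2 that fell, from 23.8 and 33.5 to 13.5 and 13.1. Their receptors and SMADs split, with 11 of 24 higher and 5 lower. Among the 7 with a searched UTR and none of the words 5 passed higher and 0 lower. TGFBR1 rose from 105 and 116 to 349 and 348 while TGFBR2, the other chain of the receptor, fell from 1700 and 1845 to 1028 and 989. In the same manner SMAD2 rose from 48.1 and 43.4 to 96.8 and 102 and SMAD3 fell from 1434 and 1427 to 830 and 875. TGFBR1 holds CAGTACA and TGFBR2 and SMAD3 hold GAAGGAA. SMAD2 holds all 3 words.

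**Figure D4:**
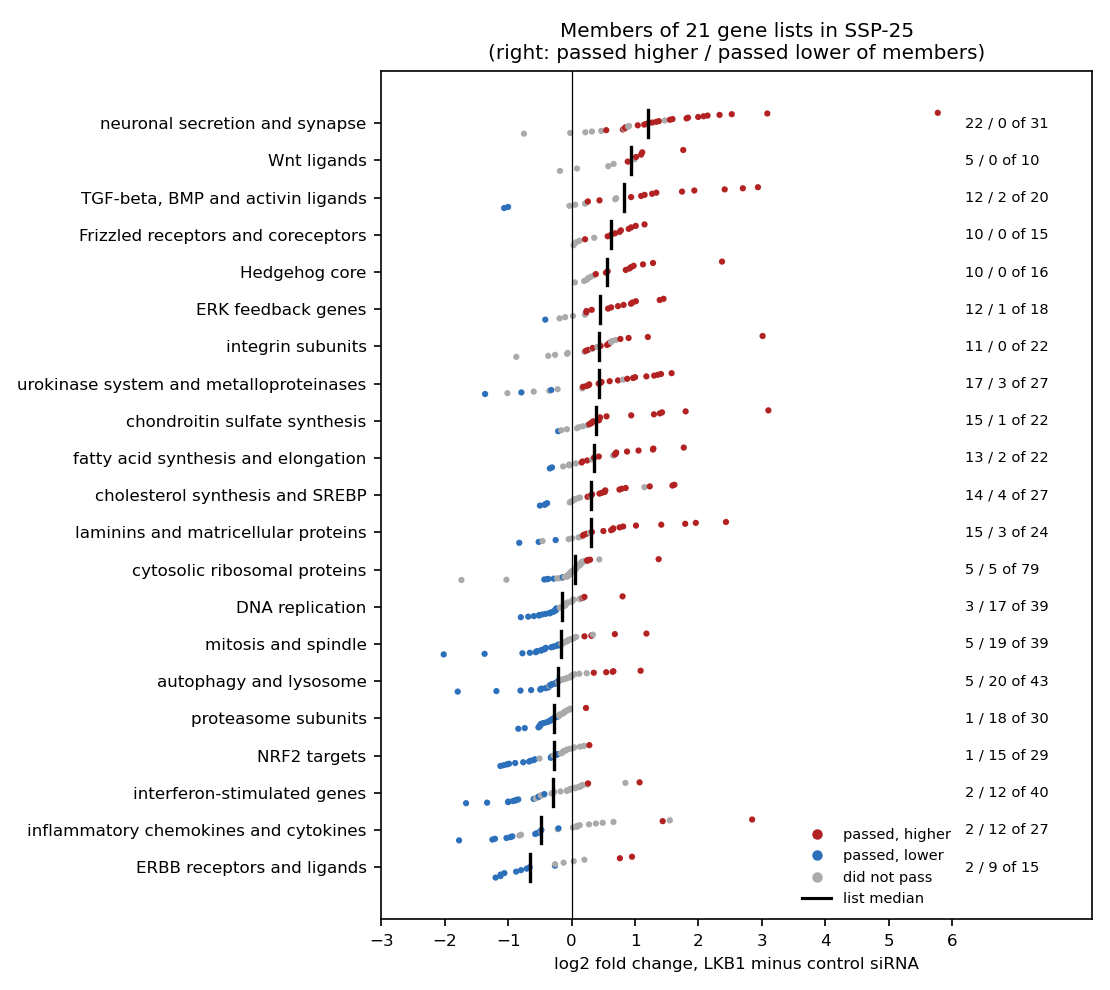
Log2 fold change (LKB1 minus control siRNA) of each member of 21 gene lists, ordered from the highest to the lowest median, with genes that passed higher in red, passed lower in blue, other members in gray and the list median as a black line. Counts at the right give members that passed higher and lower. The neuronal list has the highest median, 1.21, and the ERBB list the lowest, -0.66.

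In the EGF receptor family falls outnumbered rises, and among target and feedback genes of ERK rises outnumbered falls. Of 15 ERBB receptors, ligands and regulators 9 passed lower and 2 higher (median -0.66). HBEGF went from 459 and 470 to 204 and 225, AREG (amphiregulin) from 75.1 and 73.9 to 34.5 and 30.1, NRG1 (neuregulin 1) from 309 and 306 to 178 and 198, and ERRFI1, an intracellular inhibitor of the receptor, from 1825 and 1910 to 1201 and 1164. The receptor EGFR rose, from 790 and 800 to 1351 and 1345. Of 18 targets and feedback regulators of ERK 12 passed higher and 1 lower (median 0.45). The phosphatase DUSP5 went from 300 and 315 to 817 and 796, SPRY4 from 27.8 and 33.0 to 59.5 and 57.4, PHLDA1 from 365 and 394 to 606 and 563, and DUSP4 from 168 and 188 to 279 and 252. These 4, picked by smallest p, did not overlap between siRNAs. In the cascade itself 12 of 26 genes were higher and 8 lower, and of the 14 with a searched UTR and none of the words 7 and 2. MAPK3, which encodes ERK1, rose from 140 and 121 to 406 and 390 and the 14-3-3 protein YWHAH from 779 and 757 to 2610 and 2695. NRAS fell from 1486 and 1651 to 508 and 487 and MAP2K1, which encodes the ERK kinase MEK1, from 1066 and 1115 to 459 and 475. YWHAH holds GCAGTAC, NRAS and MAPK3 hold GAAGGAA and MAP2K1 holds none.

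Of 14 FGF, MET and PDGF receptors and ligands 5 passed higher and 2 lower (median 0.29). PDGFRB, a receptor of platelet-derived growth factor, went from 25.5 and 26.1 to 99.4 and 107. FGFR4 and FGFR3 rose 2.16-fold and 2.36-fold at signals under 30, and the ligand PDGFA fell from 170 and 176 to 123 and 128. FGFR1, MET and PDGFRA did not pass, with log2 fold changes of 0.07, 0.23 and 0.54. Of 12 angiogenic factors 7 passed higher and 0 lower (median 0.45). VEGFA went from 299 and 301 to 480 and 464, its coreceptors NRP1 and NRP2 rose 1.64-fold and 1.79-fold, and ANGPT1 rose 5.07-fold.

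Rises outnumbered falls among matrix, integrin and protease genes. Of 22 integrin subunits 11 passed higher and 0 lower (median 0.43). ITGB8, which binds latent TGF-β, had 33.7 and 38.5 with control siRNA and 296 and 291 with LKB1 siRNA. ITGA6, part of a laminin receptor, went from 285 and 330 to 734 and 678, ITGA1 rose by 0.77, and ITGA5, part of the fibronectin receptor, went from 1672 and 1673 to 2500 and 2432. Of 24 laminins and matricellular proteins 15 passed higher and 3 lower (median 0.30). The tenascin TNC, a matrix glycoprotein of wounds and tumors, went from 607 and 676 to 3413 and 3515, a rise of 2.43 (standard error 0.08, limma adjusted p = 5.6e-08). Fibronectin (FN1) went from 3534 and 3937 to 9859 and 10021, thrombospondin 2 (THBS2) from 23.2 and 25 to 88.5 and 80.7, and EDIL3 from 110 and 81.9 to 349 and 392. FN1 holds CAGTACA, EDIL3 all 3 words, and TNC and THBS2 none of the words. Of 28 collagen chains 12 passed higher and 2 lower, or 11 and 2 of the 27 that did not become members through 1 siRNA group alone, with COL1A1 from 6952 and 6538 to 10950 and 11339, COL5A1 from 805 and 817 to 1820 and 1846, and COL4A5 and COL7A1 up 1.78-fold and 1.71-fold.

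Several of these genes are also fibroblast markers. The summed signal of 9 fibroblast markers was 7444 and 6985 with control siRNA and 11826 and 12229 with LKB1 siRNA, nearly all of it COL1A1. PDGFRB, THY1, POSTN and COL1A2 were higher in both LKB1 siRNA libraries too, THY1 with 213 and 198 against 400 and 416. DCN, a defining fibroblast gene, was below 1 in all 4 libraries, and LUM had 27.0 and 29.5 against 15 and 20.1. The part of these markers in the matrix results was not tested. The 8 endothelial markers summed to between 14.5 and 24.7, with CDH5, EMCN and ERG below 1. The leukocyte markers PTPRC, CD3E and MS4A1 were below 1 as well, and the sum of that list, 1673 to 2001, was nearly all CD68.

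Among enzymes of chondroitin sulfate synthesis rises outnumbered falls, with 15 of 22 passed higher and 1 lower (median 0.39), or 8 of 12 and 0 without genes that hold a word. CSGALNACT1, which starts the chain, rose from 4.24 and 4.93 to 14.6 and 20.1, the sulfotransferase UST from 52.5 and 52.8 to 105 and 98.4, and the epimerase relative DSEL from 24.7 and 23.2 to 57.2 and 62.2. Of 27 genes of the urokinase system, metalloproteinases and their inhibitors 17 passed higher and 3 lower (median 0.43). ADAMTS1 rose from 351 and 342 to 823 and 889 and MMP24 from 161 and 142 to 329 and 356. Among the falls SERPINB2, an inhibitor of urokinase, went from 4331 and 4076 to 1715 and 1557 and ADAM17, the sheddase of EGF receptor ligands, from 1747 and 1698 to 989 and 1003. Without the second control library 9 of the 27 passed higher, and without any other single SSP-25 library 11.

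Focal adhesion components split. Of 25 core genes 9 passed higher and 7 lower, a balance that turned with the replicate block and without 3 of the single libraries. Among the 16 with a searched UTR and none of the words 6 passed higher and 2 lower. TLN1, which encodes talin 1, went from 558 and 548 to 2221 and 2237, opposite to its binding partner VCL and to FERMT2. VASP, which promotes actin growth, fell from 1528 and 1608 to 778 and 670. TLN1 holds GCAGTAC, and VCL, FERMT2 and VASP hold GAAGGAA. Of 20 targets and partners of the Hippo effectors YAP and TAZ 8 passed lower and 6 higher, among them AJUBA from 1413 and 1327 to 601 and 627, CRIM1 from 1656 and 1716 to 1070 and 1083, and the transcription factor TEAD1, which holds GCAGTAC, from 272 and 267 to 716 and 710. The widely used YAP targets CYR61, CTGF and ANKRD1 fell, with log2 fold changes of -0.82, -0.52 and -0.92.

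At cell junctions CDH2 (N-cadherin) rose from 1414 and 1501 to 2321 and 2428 and CDH6 from 12.7 and 12.1 to 31.0 and 34.3, while CDH1 (E-cadherin) was low, at 39.0 and 43.2 against 46.2 and 47.5, and did not pass (limma adjusted p = 0.29). The catenin CTNNA1 fell from 2965 and 2855 to 2333 and 2327, and CTNND2, a catenin of neurons, rose from 2.71 and 2.74 to 12.9 and 10.0. Of 25 tight junction genes 6 passed lower (24%) and 5 higher (20%), near the 23.3% and 22.9% of all SSP-25 members. Of the 22 that did not become members through 1 siRNA group alone 5 passed lower and 3 higher. Of the 19 with a searched UTR and none of the words 2 passed lower and 4 higher. CLDN12 went from 856 and 900 to 196 and 198 and CLDN1 from 655 and 856 to 331 and 310. CLDN10 stayed near 0 to 2. Of 27 immunoglobulin-like adhesion molecules 13 passed higher and 3 lower, or 12 and 3 of 26 without 1 that became a member through 1 siRNA group alone. Among the 15 with a searched UTR and none of the words 5 passed higher and 2 lower. ALCAM (CD166) went from 351 and 367 to 1598 and 1641, the guidance receptor ROBO1 from 54.5 and 59.9 to 179 in both libraries, and PVRL1 (nectin 1) rose 2.54-fold. ALCAM and ROBO1 hold GCAGTAC. The surface glycoprotein CD24 went from 591 and 586 to 2944 and 3525.

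The neuronal list had the highest median of the lists. Of 31 genes of neuronal secretion and the synapse 22 passed higher and 0 lower, 18 were called, and the median was 1.21. Since 5 of them had become members through the LKB1 siRNA libraries alone, the count without these was 17 of 26, with a median of 1.09. The stathmin STMN3 had 147 in both control libraries and 459 and 431 with LKB1 siRNA. SCG2 (secretogranin II), stored in secretory granules, went from 88.6 and 101 to 417 and 421. KIF5C and CEND1 have been given above. Apart from these the levels were mostly low, and 16 of 22 genes without any of the words passed higher.

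In both lists of lipid synthesis genes rises outnumbered falls. AMPK restrains both pathways, and SREBP transcription factors induce their genes. Of 27 cholesterol genes 14 passed higher and 4 lower (median 0.31), and of 22 genes of fatty acid synthesis and elongation 13 and 2 (median 0.35). MSMO1, an enzyme of the late steps of cholesterol synthesis, went from 456 and 488 to 1401 and 1503, DHCR7 from 650 and 626 to 1134 and 1170, and the cholesterol carrier STARD4 from 59.7 and 65.8 to 197 and 183. The fatty acid synthase FASN had 495 and 494 with control siRNA and 1171 and 1238 with LKB1 siRNA. The desaturase SCD, which holds CAGTACA, had 1514 and 1459 against 3009 and 3171, FADS2 508 and 502 against 904 and 949, and ACSL4, which activates polyunsaturated fatty acids, 807 and 854 against 1330 and 1337. In all of these genes, picked by smallest p, the knockdown libraries were above both controls. The sterol regulatory element core TCACNCCAC was found in 1 of 20 promoters of the cholesterol list, that of SREBF2, and in 1.15% of all promoters.

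Glycogen and glucose genes changed one by one. Of 21 glycogen genes 4 passed in each direction (19.05%), beside 22.9% higher and 23.3% lower over all SSP-25 members. Besides the fall of GBE1, UGP2, which makes UDP-glucose, rose from 839 and 843 to 1688 and 1652, the phosphorylase kinase subunit PHKB fell from 404 and 408 to 261 and 252, and GYG1 (glycogenin) fell by 0.50. In glycolysis 5 of 19 genes rose (26.3%, near the share of all members) and 2 fell (10.5%), with the hexokinases opposite to each other. HK1 went from 2621 and 2588 to 1294 and 1268 and HK2 from 173 and 174 to 328 and 358. The lactate exporter SLC16A1 rose by 0.70 and LDHA by 0.48. Of 28 HIF targets 14 passed higher and 6 lower (median 0.20). HIF1A itself, which holds GCAGTAC, went from 737 and 839 to 1731 and 1803. PFKFB4 rose from 128 and 121 to 293 and 304, the collagen prolyl hydroxylase P4HA1 from 1121 and 1141 to 1750 in both, and ADM fell by 0.51. CA9, a carbonic anhydrase induced by hypoxia, was near 0 in the control libraries (0.0132 and 1.05) and at 10.5 and 4.90 with LKB1 siRNA.

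Genes close to LKB1 in its pathway moved in both directions. Of 6 AMPK subunits PRKAB1 alone passed, from 610 and 584 to 469 and 452. Of 11 AMPK-related kinases 4 passed higher and 2 lower, but of the 6 with a searched UTR and none of the words 1 passed higher and 2 lower. SIK1 rose from 167 and 160 to 352 and 392, SIK2 from 137 and 132 to 227 and 244, and NUAK1 from 263 and 271 to 399 and 401, while MARK3 fell by 0.31. Among 18 CREB and CRTC genes 6 rose and 2 fell, with NR4A1, a nuclear receptor induced by CREB, from 13.4 and 8.98 to 23.5 and 28.6, ATF1 up 1.47-fold and PDE4D up 1.85-fold. Of 22 regulators of mTORC1 9 rose and 4 fell. The inhibitor AKT1S1 (PRAS40) went from 540 and 538 to 1033 and 1007 and TBC1D7, a subunit of the TSC complex, from 505 and 478 to 842 and 789. The RAG GTPases RRAGC and RRAGD, which bring mTORC1 to the lysosome, fell from 1026 and 1055 to 519 and 507 and from 181 and 161 to 67.4 and 67.2.

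The remaining 25 of the 66 lists had more members higher in 14, more lower in 8 and equal counts in 3. Cytosolic ribosomal proteins moved little as a set, with 5 of 79 passed in each direction (6.33%) and a median of 0.05. Single members ranged from -1.74 to 1.37. Respiratory complexes II to V had 0 of 38 higher and 4 lower (10.5%), beside 22.9% and 23.3% of all SSP-25 members. That balance turned with the replicate block, and the median of the list changed sign after quantile normalization.

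The response of SSP-25 was compared with the mean response of HuH-28 and RBE in the same fit. Of all genes 374 responded more positively in SSP-25 (2.32%) and 193 more negatively (1.2%), at an adjusted p under 0.05 and a difference above 1 on the log2 scale. The 8 largest positive differences among genes whose signal averaged 20 or more were KRT83, KRT81, KRT85, GDF6, KRT86, VCAN, PDZK1 and ITGB8. For KRT81 the log2 fold change was 2.62 in SSP-25, 0.66 in HuH-28 and -1.65 in RBE, a difference of 3.12 (limma adjusted p = 9.1e-07). PDZK1, a scaffold of membrane transporters, went from 9.56 and 8.29 to 34.7 and 32.3 in SSP-25, where its log2 fold change of 1.85 stood against -0.57 and -0.05. The 8 largest negative differences were those of HPD, GDF15, CXCL3, GBP5, TP53I3, CXCL1, CYP4F3 and GCKR. The glucokinase regulator GCKR fell from 92.9 and 95.0 to 21.5 and 30.7 in SSP-25, against a log2 fold change of -0.01 in HuH-28 and -0.18 in RBE. GDF15, CXCL1 and CXCL3 had log2 fold changes above 2 in RBE and below 0 in SSP-25. In HuH-28 the values were 0.12, -0.98 and -0.47. For CXCL1 and CXCL3 HuH-28 thus had the sign of SSP-25, and RBE alone was positive. CYP4F3, which inactivates leukotriene B4, went from 223 and 257 to 144 and 122 in SSP-25, and did not pass when any 1 of the 4 libraries was left out. STK11 itself fell further in SSP-25 than in the other lines, by 2.77 against 1.59 and 1.68, a difference of -1.14 (limma adjusted p = 8.1e-04).

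**Figure D5:**
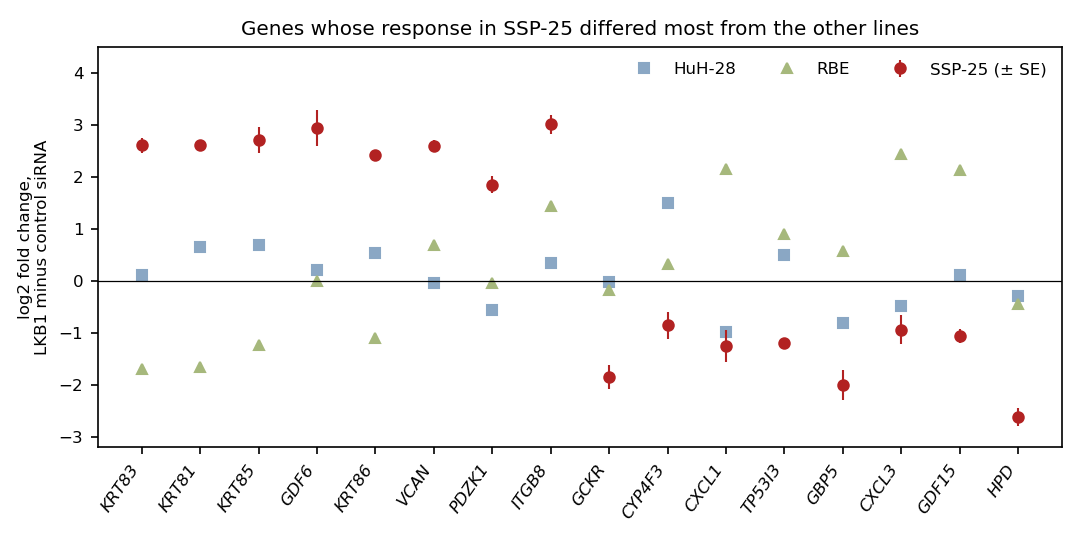
Log2 fold change (LKB1 minus control siRNA) in SSP-25 (red circles with the standard error), HuH-28 (blue squares) and RBE (green triangles) for the 8 largest positive and 8 largest negative differences of SSP-25 from the mean of the other lines. The 4 keratins rose in SSP-25 and had values between 0.11 and 0.68 in HuH-28 and below -1 in RBE.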

How the data were processed

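The authors deposited 1 table, whose signal is in normalized reads per kilobase. The submitters' notes name TopHat 1.2.0, edgeR and hg19, the methods NextGENe, an older build and RefSeq mRNA, and the sources used here leave unstated which of these made it. The signal is fractional, so the read depth could not be recovered. Of 18815 rows 23 repeats were left out, 28 hold a date for a symbol, and 108 share all values with another symbol.

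Log2(signal + 0.5) was fitted with limma 3.58.1 in R 4.3.3, with 6 group means, a trend of variance on level, and p-values adjusted by Benjamini-Hochberg over 16146 genes at 1 or more in at least 2 of 12 libraries (6 residual degrees of freedom). On simulated data 95 of 100 genes changed by 1.5 on the log2 scale were called in SSP-25, and 82 of 100 changed by 0.75 passed. Of 15946 unchanged genes 6 were called. Simulated data follow the assumptions they are drawn with, so these counts check the procedure and are no error rates for the real libraries. Recovery was not split by signal, so they do not show how well changes at low signals are found.

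The members, gene lists and words were chosen with earlier results of these data known. Named genes are STK11, the 15 called genes that rose and the 15 that fell most, averaging 20 or more with siRNA groups that do not overlap, genes at 0 (taken as under 0.1, decided after the values were seen) with 1 siRNA and at 5 or more with the other, up to 4 members with the smallest p of each of 41 lists, the 8 largest differences from the other lines each way, and genes the study names. Others, such as KEAP1, CCND1, EGFR, ISG15, MX1 and the further keratins and markers, were chosen after their values were seen. Words were searched in the longest 3′ UTR of GENCODE v29 (14914 of 15071 matched symbols had one) with Python 3.11.15. Some genes are not reported here. Alternatives were pseudocounts, filters, scalings, samples in the fit and a replicate block.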

Additional observations from a re-analysis of the deposited data

Results flagged for a closer look

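In 44 named genes the response of SSP-25 differed from the mean response of HuH-28 and RBE, by a limma test of the difference itself with adjusted p-values from 9.1e-07 to 0.041 (2 libraries per group). The differences below are log2 fold changes of SSP-25 minus that mean.

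Among structural and adhesion genes the response was more positive in SSP-25 for KRT83 by 3.4, KRT81 by 3.12, KRT85 by 2.98 and KRT86 by 2.7, and these 4 keratins had negative values in RBE. VCAN differed by 2.28, ITGB8 by 2.12, CLDN10 by 1.65, NEGR1 by 1.37, CD24 by 1.32, THBS2 by 1.27, and ITGA6 and the catenin CTNND2 by 1.00 each. Among secreted factors and receptors GDF6 differed by 2.83, IL11 by 1.99, PDGFRB by 1.68, ANGPT1 by 1.63, HHIP by 1.22, BMP4 by 1.05, WNT5A by 1.03 and FGFR3 by 1.01. Of the neuronal genes ELAVL2 by 2.06, SCG2 by 1.55 and KIF5C by 1.24. The transporter scaffold PDZK1 and the transporter SLCO2A1 differed by 2.16 and 1.35, and the feedback inhibitor SOCS2 by 1.11. Some of these genes had log2 fold changes above 1 in HuH-28 too and lower ones in RBE. These were 1.38 and -0.0016 for ELAVL2, 1.12 and -0.52 for PDGFRB, 1.17 and 0.55 for IL11, and 1.05 and 0.13 for SOCS2. NEGR1 and KIF5C were above 1 in both lines. Others, such as GDF6 (0.22 and -0.0045) and VCAN (-0.04 and 0.70), were below 1 in both.

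The response was more negative in SSP-25 for the inflammatory genes CXCL3 (-1.92), GBP5 (-1.89), CXCL1 (-1.84), BIRC3 (-1.29) and RELB (-1.26). CXCL3, GBP5 and CXCL1 had negative log2 fold changes in HuH-28 as well (-0.47, -0.80 and -0.98). In RBE theirs were positive (2.45, 0.58 and 2.16). Growth factor and stress genes with more negative values were GDF15 (-2.19), TP53I3 (-1.89), AREG (-1.53) and GADD45A (-1.08). Among enzymes and their regulators these were HPD (-2.25), CYP4F3 (-1.76), GCKR (-1.76), PLA2G16 (-1.75) and the inhibitor SERPINB2 (-1.54). CLDN1 differed by -1.07 and STK11 by -1.14. For CEND1 (3.03), CLDN10 (1.65) and PLSCR2 (-4.97) the fitted differences are not sizes of change. Each of these genes was at or near 0 with 1 siRNA in SSP-25 and became a member through the other siRNA alone. Their values depend on the pseudocount.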

How the results depend on the processing

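No named gene that passed changed direction under the alternatives, and the fall of STK11 passed under all of them. With a pseudocount of 10 the calls went from 987 higher and 368 lower to 393 and 172, and the differences from the other lines from 374 and 193 to 120 and 75. After quantile normalization 713 were called higher and 519 lower. Without genes that hold a word, an alternative chosen after seeing the data that leaves fewer genes, 594 were called higher and 205 lower. Leaving out 1 SSP-25 library gave 889 to 942 higher and 330 to 366 lower, and 266 to 340 and 131 to 156 differences. The lone library of a group is then assumed to vary like the others.

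The median log2 fold change of genes holding GCAGTAC exceeded that of other genes by 0.335, by 0.507 in the shortest annotated UTR and by 0.294 after quantile normalization. For CAGTACA the difference was 0.19, and 0.299 in the shortest UTR. For GAAGGAA it was -0.046, -0.045 at a mean signal of 5 or more, and -0.06 both in the shortest UTR and after quantile normalization. The cause was not tested.

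The replicate numbers were not shown to pair the samples, since the deviations of same-numbered SSP-25 libraries had a correlation of 0.0325 across genes (0.431 in HuH-28, 0.00227 in RBE). With a replicate block 1009 genes were called higher and 381 lower, and CYP4F3 no longer passed (limma adjusted p = 0.055). CLDN10 and WNT4 did not pass in SSP-25 alone or with a pseudocount of 10, WNT4 also not after quantile normalization, and HRASLS2 not with a pseudocount of 0.1 or without the trend. Lists with more members higher numbered 35 to 43 of 66 over the alternatives and lists with more lower 20 to 25. Read depth is unknown, so low signals carry no counting interval.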
